A study of Mus musculus with 617 samples.

Results

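The cells described here are 39 of the 74 single cells profiled from motor neuron cultures, chosen by the measured levels of 2 genes. Of these, 26 cells had Tubb3 at 10 FPKM or more and Sox17 under 10 FPKM, and are called Tubb3-only. Another 13 cells had Sox17 at 10 FPKM or more and Tubb3 under 10 FPKM, and are called Sox17-only. A further 34 cells had both genes at 10 FPKM or more and 1 cell had neither. FPKM is the number of sequenced fragments of a gene, scaled for transcript length and library size. The series holds 617 single cells in all, and the table of expression levels used here holds 447.

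All cells descended from mouse embryonic stem (ES) cell lines of an F1 cross between C57BL/6J mothers and CAST/EiJ fathers. There was 1 female and 1 male line, so sex and line cannot be told apart. Both lines were sampled as ES cells in serum with LIF (68 female and 52 male cells), in 2i with LIF (60 and 51), as epiblast-like cells in Activin A and FGF2 (79 and 63), and after differentiation (39 and 35). The differentiated cells had passed through embryoid bodies exposed to retinoic acid and the smoothened agonist SAG. The labelled product is motor neurons, and the protocol names several interneuron types as well. Each state was 1 culture per line, so a comparison of states has n = 2 cultures a state and the cells within a culture are not replicates.

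Tubb3 encodes a β-tubulin of neurons and is a common marker of newly born neurons. Sox17 encodes a transcription factor of endoderm, which forms the lining of the gut and, outside the embryo, the visceral and parietal endoderm of the yolk sac. Embryoid bodies often form an outer endoderm layer that lays down a basement membrane of laminin and type IV collagen. Retinoic acid patterns the neural tube towards hindbrain and spinal cord and induces Hox genes, and hedgehog signalling directs ventral neural progenitors towards motor neurons. Isl1, Mnx1 and Lhx3 are transcription factors of spinal motor neurons.

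Tubb3 (ENSMUSG00000062380, chromosome 8) and Sox17 (ENSMUSG00000025902, chromosome 1) chose the cells, so their levels are given as a description only. The cells nearest to the Tubb3 threshold had 7.25 and 9.48 FPKM below it and 11.0 and 12.0 FPKM above it. For Sox17 the nearest cells had 2.97 FPKM below the threshold and 10.4 and 11.8 FPKM above it. There were 10 cells between 5 and 20 FPKM of Tubb3 and 5 between those levels of Sox17.

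The spread of the sets over the cultures depended on the threshold. At 10 FPKM, in the female culture 20 of 39 cells were Tubb3-only (51.3%, exact 95% binomial interval 34.8 to 67.6), and in the male culture 6 of 35 (17.1%, 6.56 to 33.6). Sox17-only cells numbered 7 of 39 in the female (17.9%, interval 7.54 to 33.5) and 6 of 35 in the male culture (17.1%). Cells with both genes were 11 of 39 in the female culture (28.2%, interval 15.0 to 44.9) and 23 of 35 in the male culture (65.7%, 47.8 to 80.9). These intervals cover only the drawing of cells from each culture. Within the runs of 24 title numbers, the male runs held 4 Tubb3-only, 5 Sox17-only and 11 cells with both of 20, and 2, 1 and 12 of 15. The female runs held 10, 5 and 6 of 22, and 10, 2 and 5 of 17. In both male runs cells with both genes were the largest set, and in both female runs Tubb3-only cells were. At 5 FPKM, 53.8% of female and 17.1% of male cells were Tubb3-only, and 30.8% and 65.7% had both. At 20 FPKM these shares were 46.2% and 22.9%, and 15.4% and 57.1%, so the order of the cultures held. At 100 FPKM, a threshold chosen after seeing the data, the order turned for Tubb3-only cells, with 28.2% of female and 45.7% of male cells. Cells with both were then 0% and 11.4%.

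**Figure D1:**
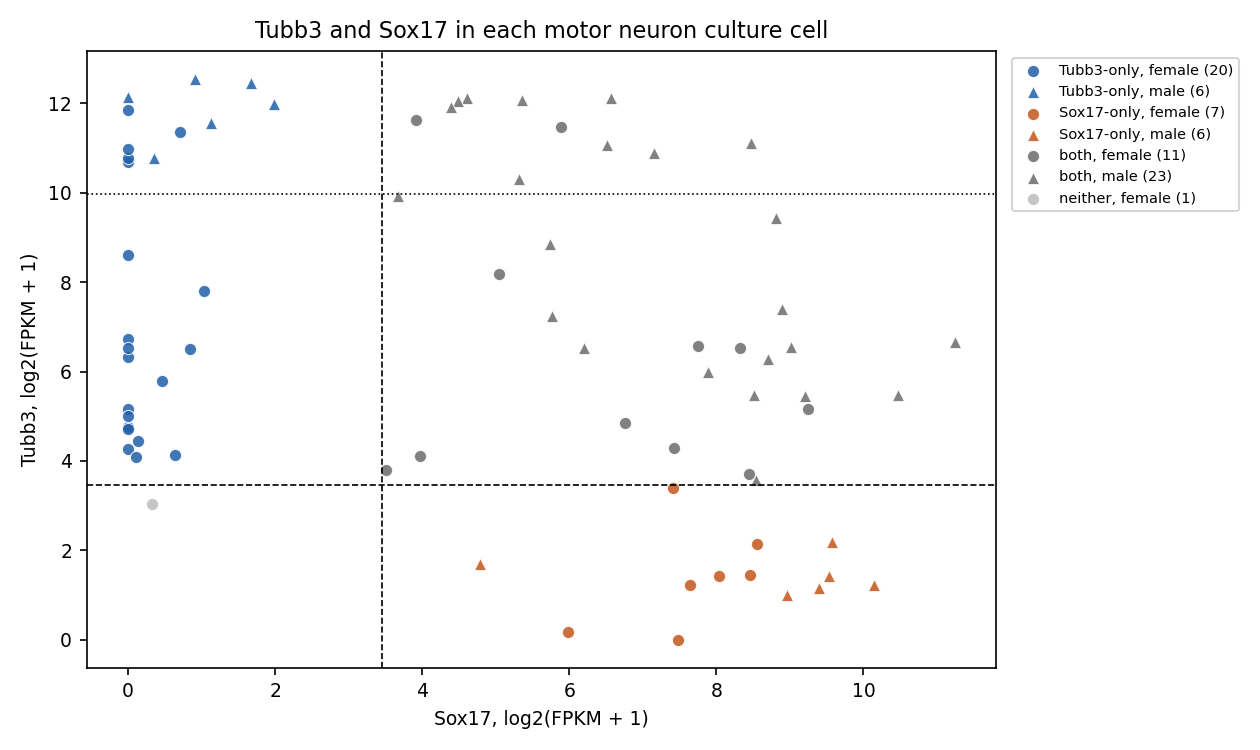
Tubb3 (vertical axis) against Sox17 (horizontal axis) in each of the 74 motor neuron culture cells, both as log2(FPKM + 1), with colour for the set and shape for the line; dashed lines stand at 10 FPKM and the dotted line at 1000 FPKM of Tubb3. Tubb3-only cells fall into an upper group of 11 and a lower group of 15, all 15 of them female, and the 34 cells with both genes span 11.0 to 4456 FPKM of Tubb3.

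A Tubb3 level of 10 FPKM did not separate neurons from stem cells in these data. Among serum ES cells, 63.2% of female and 57.7% of male cells passed it, with highest values of 167 and 188 FPKM. Tubb3 passed it in 43.3% of female and 21.6% of male 2i cells and in 64.6% and 26.98% of epiblast-like cells. No cell of these 3 states reached 1000 FPKM, while 7 of 39 female and 15 of 35 male motor neuron culture cells did. Sox17 passed its threshold in 17.6% of male and 0% of female 2i cells, in 15.9% of male and 1.27% of female epiblast-like cells, and in 1.47% of female and 0% of male serum ES cells.

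The Tubb3-only cells were therefore also described by a level of 1000 FPKM, a value chosen after the levels were seen. The 11 cells above it (Tubb3-high; 5 female and 6 male) had 1652 to 5982 FPKM of Tubb3 with a median of 3020. The 15 cells below it (Tubb3-low, all female) had 15.96 to 386 FPKM with a median of 34.8. All 6 male Tubb3-only cells were thus Tubb3-high, as against 5 of 20 female cells.

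Each of the 11 Tubb3-high cells carried Stmn2, Snap25 and Nefl at high levels. Stmn2, a regulator of microtubules in growing axons, had a lowest, median and highest value of 4816, 6142 and 7820 FPKM in Tubb3-high cells. It had 9.88, 95.7 and 927 FPKM in Tubb3-low cells and 0, 20.7 and 81.5 FPKM in Sox17-only cells. The Tubb3-high cells did not overlap the others, and the Tubb3-low median was near the serum ES medians of 119.3 (female) and 95.3 FPKM (male). This nearness is given for Stmn2 alone, which 100% of serum ES cells carried at 1 FPKM or more. Gap43, another pan-neuronal gene, was above 1 FPKM in every Tubb3-low cell. It was at 1 FPKM or more in 41.2% of female and 26.9% of male serum ES cells. Snap25, part of the machinery for synaptic vesicle release, ran from 328 to 846 FPKM in Tubb3-high cells. Only 5 of 15 Tubb3-low cells had 1 FPKM or more of Snap25, with a highest value of 40.2 FPKM. Nefl, a neurofilament subunit, had 1468, 2586 and 3198 FPKM in Tubb3-high and 0, 24.8 and 494 FPKM in Tubb3-low cells. Across the 17 pan-neuronal genes other than Tubb3, the mean level in a cell on the log2(FPKM + 1) scale was 8.71 to 9.28 in Tubb3-high and 1.96 to 5.37 in Tubb3-low cells. In Sox17-only cells this level was 0.53 to 1.90, so the Tubb3-low cells lay between the others without overlap.

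The Tubb3-low cells carried RNAs of other kinds. Pou5f1, the pluripotency factor Oct4, was at 10 FPKM or more in 9 of 15 Tubb3-low cells, with a lowest, median and highest value of 0, 22.5 and 624 FPKM. Its highest value was 0.245 FPKM in Tubb3-high and 1.504 FPKM in Sox17-only cells, and its serum ES medians were 488 (female) and 620 FPKM (male). Dppa5a, another gene of pluripotent cells, had 40.3, 527 and 5940.5 FPKM in Tubb3-low and 0, 19.5 and 377 FPKM in Tubb3-high cells. Col1a1, a fibrillar collagen of mesenchymal cells, was at 10 FPKM or more in 9 of 15 Tubb3-low and 1 of 11 Tubb3-high cells. Nes, an intermediate filament of neural progenitors, had a Tubb3-low median of 7.58 FPKM, and Sox2, a factor of pluripotent and neural progenitor cells, had 7.21 FPKM. The name neuron-like therefore fitted 11 of the 26 Tubb3-only cells by their neuronal genes, and the other 15 are called by their Tubb3 level.

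**Figure D2:**
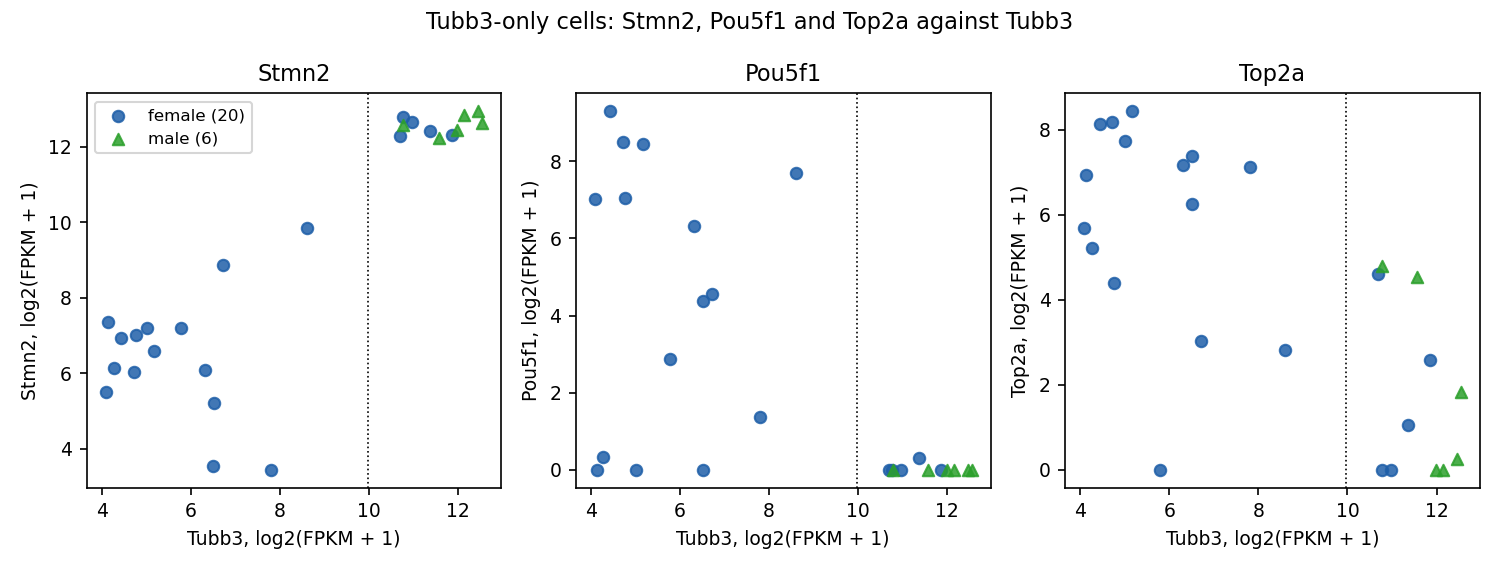
Stmn2, Pou5f1 and Top2a (vertical axes) against Tubb3 (horizontal axis) in the 26 Tubb3-only cells, all as log2(FPKM + 1), with circles for female and triangles for male cells and a dotted line at 1000 FPKM. The 11 cells to the right of the line have Stmn2 at 4816 FPKM or more and Pou5f1 at 0.245 FPKM or less, while Pou5f1 reaches 624 FPKM to the left of it.

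Genes of the labelled cell type, motor neurons, were present in part. Isl1 was at 1 FPKM or more in 10 of 11 Tubb3-high cells, with a lowest, median and highest value of 0, 446 and 941 FPKM. Its highest value was 42.6 FPKM in Tubb3-low and 34.6 FPKM in Sox17-only cells. Slc18a3, which loads acetylcholine into vesicles, had 31.5, 197 and 674 FPKM in Tubb3-high cells. It had 0, 0.223 and 130.5 FPKM in Tubb3-low cells, so the groups overlapped. The overlap came only from the cell with that highest value. That cell had 4332 genes at 1 FPKM or more, the fewest of any motor neuron culture cell. Chat, which makes acetylcholine, was at 1 FPKM or more in 8 of 11 Tubb3-high cells and none of 15 Tubb3-low cells. Slc5a7, the choline transporter, was at 1 FPKM or more in 9 of 11 and 1 of 15. Prph, an intermediate filament of peripherally projecting neurons, had 53.6, 1371 and 2394 FPKM in Tubb3-high cells. Other defining factors were scarce. Lhx3 did not exceed 0.776 FPKM in any of the 26 Tubb3-only cells, and Mnx1 was at 1 FPKM or more in 2 of them. Olig2, a factor of motor neuron progenitors, was at 1 FPKM or more in 2 of 26.

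Several defining markers of interneurons and other lineages were at or near 0 in most Tubb3-only cells, while other genes of the same lists were present. Among transmitter genes of interneurons, Slc17a6 was at 1 FPKM or more in 2 of 26 cells, Gad2 in 2, Gad1 in 1 and Slc32a1 in none. Ptprc of blood cells and T of early mesoderm were at 1 FPKM or more in no Tubb3-only cell, and Sox10 of neural crest and Cdh5 of vessels in 1 each. The pancreatic genes Neurog3, Ins1 and Ins2 were at 1 FPKM or more in none. Nkx2-2, a ventral progenitor and interneuron factor, was at 1 FPKM or more in 6 of 26 cells, with a highest value of 42.2 FPKM. Col1a1 reached 731 FPKM and the keratin Krt8 reached 709 FPKM, both in Tubb3-low cells. Genes of secretory granules were present all the same. Cartpt, a neuropeptide precursor, had 944, 6690 and 16552 FPKM in Tubb3-high cells, the highest median of the genes named here. It had 0, 63.3 and 842 FPKM in Tubb3-low cells and 0, 14.5 and 85.1 FPKM in Sox17-only cells. Chga, a granule protein of endocrine cells and neurons, had 84.6, 146.6 and 477 FPKM in Tubb3-high cells and at most 8.34 FPKM in Tubb3-low cells.

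The Sox17-only cells expressed a set of endoderm transcription factors. Gata4 had a lowest, median and highest value of 10.6, 114.1 and 297 FPKM over the 13 cells, and Foxa2, a forkhead factor, had 34.5, 68.1 and 274.2 FPKM. Gata6 had 2.71, 26.03 and 205 FPKM. Sox7, a relative of Sox17, had 0, 24.9 and 191 FPKM. All 13 cells thus held Gata4, Foxa2 and Gata6 together at more than 1 FPKM. Hnf4a, a factor of visceral endoderm and liver, had a median of 0 and a highest value of 18.5 FPKM, and Foxa1 was listed at 0 in all 13 cells.

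Genes of basement membrane and parietal endoderm were among the most abundant listed genes of these cells. Sparc, a secreted collagen-binding protein, had 1712, 3999 and 23461 FPKM. The laminin chains Lamb1 and Lama1 had medians of 653 (270.7 to 1413) and 214 FPKM (90.1 to 424), and the collagen chain Col4a1 had 369 FPKM (217 to 675). Srgn, a proteoglycan core protein, had 83.8, 959 and 6292 FPKM, and Pth1r, the receptor of parathyroid hormone-related peptide, had 23.4, 131.4 and 381 FPKM. Plat, the tissue plasminogen activator, ranged from 0.0901 to 696 FPKM with a median of 84.6. Every Sox17-only cell was above 20 FPKM for Lamb1, Lama1, Col4a1, Srgn, Sparc and Pth1r.

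Genes of visceral endoderm were present in some cells and at 0 for others. S100g, a calcium-binding protein, had 252.97, 3028 and 21012 FPKM. Spink1, a secreted protease inhibitor, had 157, 2465 and 12755 FPKM, and Dab2, an endocytic adaptor, had 99.6, 335 and 2377 FPKM. The uptake receptors Cubn and Lrp2 had medians of 9.13 and 5.42 FPKM. Ttr, the thyroid hormone carrier, had 0, 107.7 and 356 FPKM. Afp, the fetal albumin relative that marks visceral endoderm, was at 1 FPKM or more in 3 of 13 cells (highest value 64.4 FPKM). Rbp4, which carries retinol, was at 1 FPKM or more in 5 of 13. Apoa1, Apoa4, Apob and Fga were listed at 0 in all 13 cells. The label endoderm-like thus held for the transcription factors and basement membrane genes of the 13 cells, while secreted visceral endoderm proteins were uneven. Epithelial keratins were high, with medians of 403 FPKM for Krt8, 813 FPKM for Krt18 and 213 FPKM for Krt19. Krt8 ran from 157 to 835 FPKM in Sox17-only cells and from 0 to 42.1 FPKM in Tubb3-high cells, without overlap. The Tubb3-low cells did overlap, with 0, 37.6 and 709 FPKM. The mean level of the 7 epithelial genes, on the log2(FPKM + 1) scale, ran from 0.51 to 8.57 in Tubb3-low and from 2.35 to 8.64 in Sox17-only cells.

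Between the sets themselves, the rule used the contrast, so the following counts are a description with no test. Differences are given as the log2 ratio of the mean FPKM over cells plus 1, Tubb3-only over Sox17-only, in the female and the male culture. A gene is counted where this is 1 or more, or -1 or less, in both cultures. Of 16533 genes with a mean of 1 FPKM or more in either set, 2974 (18%) were counted higher in Tubb3-only and 945 (5.72%) higher in Sox17-only cells. The median over these genes was 0.46. The balance of the directions moved with the scale: 2565 and 1324 were counted with each set of a culture scaled to a common upper quartile, 3519 and 653 with that quartile taken over all genes above 0, and 1796 and 1200 from means of log2 values. Counts of listed genes below are over all members of a list, and genes past the same filter are given where few were.

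All 17 pan-neuronal genes other than Tubb3 were counted higher in Tubb3-only cells, with a list median of 6.43. Gap43, a growth cone protein, had means of 1213 and 3310 FPKM (female and male) in Tubb3-only and 25.2 and 5.39 FPKM in Sox17-only cells. Of 14 motor neuron genes, 10 were counted higher and none lower (median 3.84), and 6 were higher from means of log2 values. Of 16 endocrine and granule genes, 8 were counted higher (median 1.75), and of 19 Hox genes, 12 (median 2.94). Hoxb5, a factor of hindbrain and upper spinal identity, had means of 57.9 and 205 FPKM in Tubb3-only cells and 0.0993 and 0.0145 FPKM in Sox17-only cells. Of 17 interneuron genes 6 were past the filter, of which 2 were counted higher and 1 lower (list median 0.08). Of 14 neural progenitor genes 5 were past the filter, of which 3 were counted higher (list median 0.34).

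On the other side, 7 of 11 endoderm transcription factors other than Sox17 were counted higher in Sox17-only cells and none in Tubb3-only cells (median -2.53). The same held for 10 of 12 parietal endoderm and basement membrane genes (median -4.00) and 6 of 7 epithelial genes (median -2.67). Lamb1 had means of 526 and 842 FPKM in Sox17-only cells and 44.7 and 16.2 FPKM in Tubb3-only cells. Of 20 visceral endoderm genes, 7 were higher in Sox17-only and 2 (Apoa2 and Cthrc1) in Tubb3-only cells (median -0.47). Of 16 proliferation genes, 7 were higher in Sox17-only cells and none in Tubb3-only cells (median -2.62). This count moved widely: it was 1 with the upper quartile over all genes above 0 as scale, 11 with the quartile over genes past the filter, 12 at a threshold of 20 FPKM, 15 from means of log2 values and 16 with the Tubb3-low cells left out. Top2a, a topoisomerase of dividing cells, had a median of 1.09 FPKM in Tubb3-high, 121.3 FPKM in Tubb3-low and 175 FPKM in Sox17-only cells. Mki67, a marker of cycling cells, did not exceed 0.0729 FPKM in Tubb3-high cells and had medians of 6.40 and 17.5 FPKM in the other groups. The Tubb3-only mean of proliferation genes thus joined cells with and without these RNAs.

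In the other lists many genes were under the filter. Of 9 gut and pancreas genes 5 were past it, and 3 of these (Cxcr4, Onecut1 and Nkx6-2) were counted higher in Tubb3-only cells. Of 10 pluripotency genes, Tdgf1 was counted higher and Klf4 lower (median 0.77). The cultures differed in sign here, with list medians of 1.80 in the female and -0.31 in the male culture, and 6 of 10 were higher in the female culture alone. With the Tubb3-low cells left out, all of them female, 1 was higher and 3 were lower (median -0.10). Of 14 genes of mesoderm, vessel, blood and heart 9 were past the filter, with 1 higher and 3 lower (list median 0.06). Of 9 crest and glia genes 2 were past it, with 1 higher (list median 0.22).

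Retinoid genes were counted in both directions. Crabp2, which binds retinoic acid inside the cell, had means of 306 and 1317 FPKM in Tubb3-only cells and 12.2 and 0.747 FPKM in Sox17-only cells. Crabp1, its relative, was counted higher in Tubb3-only cells as well and was listed at 0 in all 13 Sox17-only cells. Cyp26a1, which breaks down retinoic acid, Stra6, a retinol uptake receptor, and Dhrs3, which reduces retinal, were counted higher in Sox17-only cells. Cyp26a1 had a lowest, median and highest value of 0, 134.01 and 950 FPKM in Sox17-only cells and at most 0.459 FPKM in Tubb3-high cells. Of the 13 retinoic acid and hedgehog genes, 3 were counted in each direction (median 0.45).

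**Figure D3:**
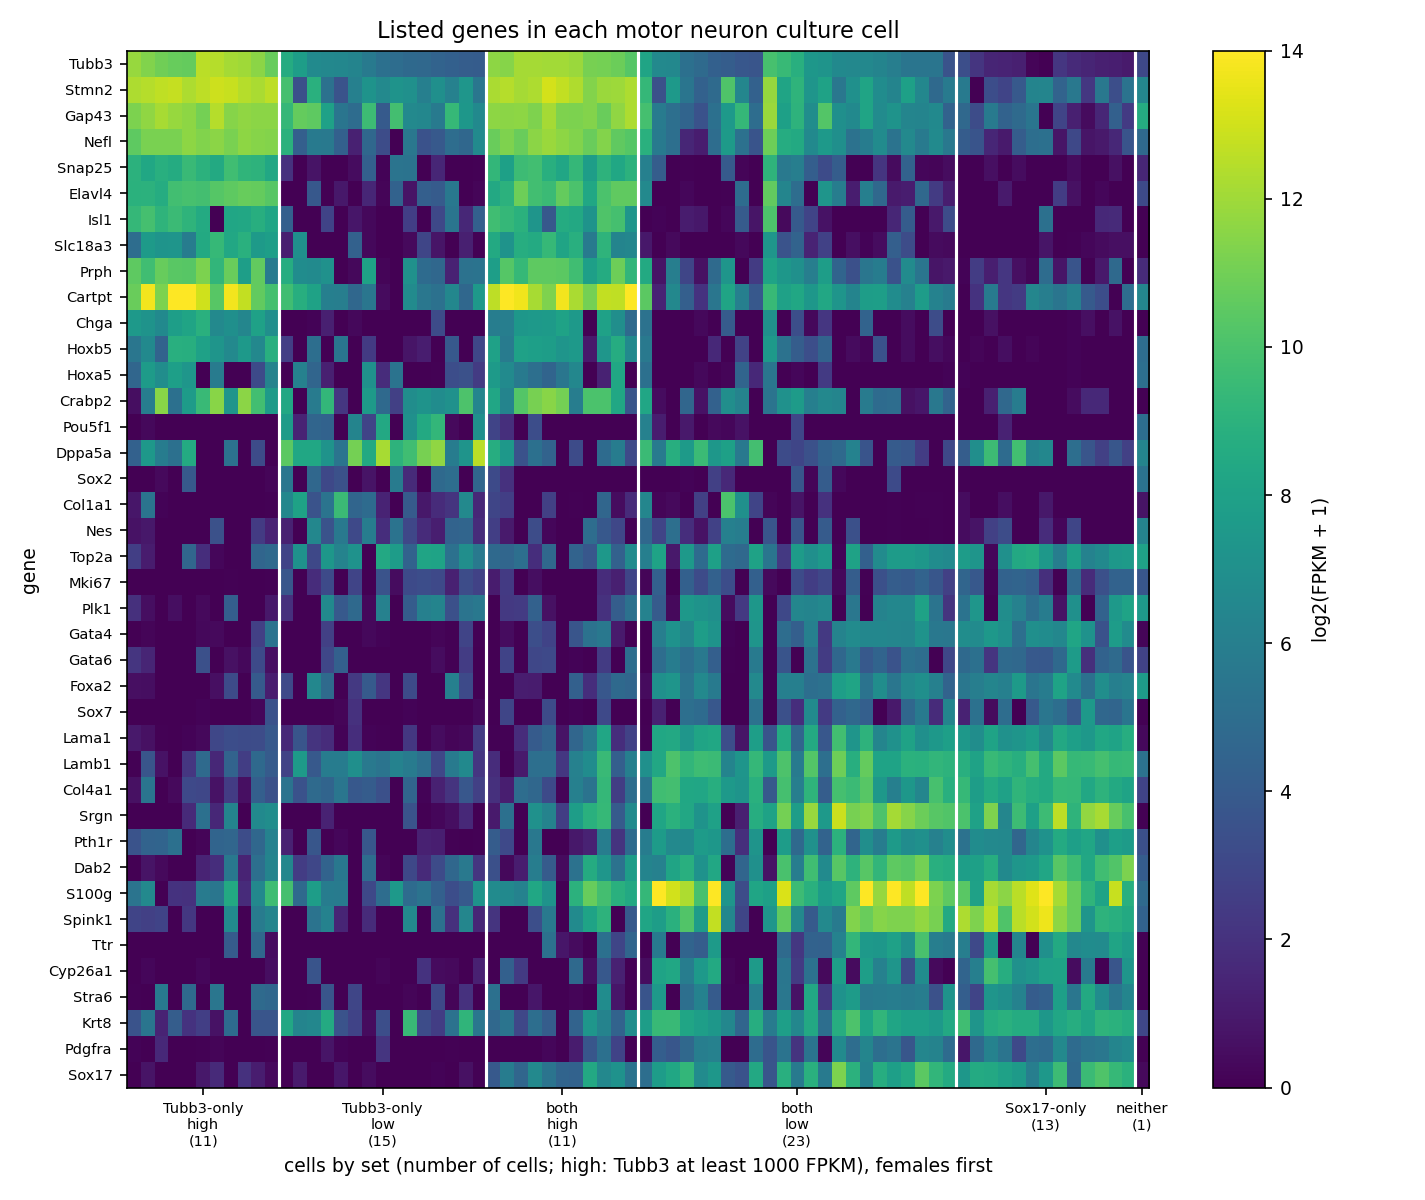
Expression of 40 listed genes (rows) in each of the 74 motor neuron culture cells (columns), as log2(FPKM + 1) by colour, with cells ordered by set and with female cells first in each block. The 11 Tubb3-high cells are bright for the neuronal rows at the top and the 13 Sox17-only cells for the endoderm rows at the bottom, while the 15 Tubb3-low cells are dim for most of both.

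The 10 genes annotated as protein-coding in GENCODE with the largest difference on each side, by the smaller value of the 2 cultures, extended these groups. On the Tubb3-only side they were Stmn4, Elavl4, Ly6h, Fgf13, Snhg11, Snap25, Rprm, Tmeff2, Gng2 and Npdc1. Snhg11 is better known as a host gene of small nucleolar RNA, although it has that annotation. Stmn4, a relative of Stmn2, had means of 239.1 and 918 FPKM (female and male) in Tubb3-only cells and 0.254 and 1.35 FPKM in Sox17-only cells. Elavl4, an RNA-binding protein of neurons, had 169 and 1391 FPKM as against 0.150 and 0.886 FPKM. Even here the female mean came mostly from few cells: Elavl4 had 402 to 1746 FPKM in Tubb3-high cells and a median of 0.687 FPKM in Tubb3-low cells. On the Sox17-only side they were Aqp8, Lgals2, Pla2g12b, Cyp26a1, Tspan8, Habp2, Srgn, Dpp4, Nepn and Lama1. Aqp8, a water channel, had means of 148.6 and 939 FPKM in Sox17-only cells and 0.0390 and 1.22 FPKM in Tubb3-only cells. It was at 1 FPKM or more in 10 of 13 Sox17-only cells, and listed at 0 in every serum ES cell. Lgals2, a galectin, was at 1 FPKM or more in 8 of 13 Sox17-only cells and none of 26 Tubb3-only cells. Pla2g12b, of the secreted phospholipase A2 family, was at 1 FPKM or more in all 13 Sox17-only cells, with 30.3, 96.6 and 433 FPKM. Its highest value in a Tubb3-only cell was 2.72 FPKM, so the sets did not overlap.

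Promoter sequence is shown for the genes that head each side, to set the factors named above beside the genes that differed most. The windows are the 250 bases before the start, 5′ to 3′ on the gene's strand, from RefSeq with build GRCm38.p6. Elavl4 lies on the minus strand (chr4:110287528-110287777, with 4 starts listed), Aqp8 on the plus strand (chr7:123462044-123462293), Lgals2 on the minus strand (chr15:78855530-78855779) and Pla2g12b on the plus strand (chr10:59403435-59403684). Stmn4 and Ly6h are named only.
Elavl4: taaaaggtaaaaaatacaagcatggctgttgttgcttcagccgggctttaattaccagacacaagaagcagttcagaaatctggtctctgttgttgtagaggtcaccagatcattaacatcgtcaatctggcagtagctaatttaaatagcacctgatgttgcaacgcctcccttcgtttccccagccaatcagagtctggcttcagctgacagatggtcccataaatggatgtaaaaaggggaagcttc
Aqp8: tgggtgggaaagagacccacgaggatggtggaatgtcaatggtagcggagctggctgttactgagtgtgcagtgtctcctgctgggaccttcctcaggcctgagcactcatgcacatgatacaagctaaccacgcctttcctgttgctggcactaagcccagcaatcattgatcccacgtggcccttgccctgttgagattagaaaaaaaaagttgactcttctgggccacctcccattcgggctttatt
Lgals2: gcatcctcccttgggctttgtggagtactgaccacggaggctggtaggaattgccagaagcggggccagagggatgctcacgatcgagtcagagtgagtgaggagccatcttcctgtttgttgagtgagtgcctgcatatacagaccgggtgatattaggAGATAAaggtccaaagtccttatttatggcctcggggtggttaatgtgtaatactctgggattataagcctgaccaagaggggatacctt
Pla2g12b: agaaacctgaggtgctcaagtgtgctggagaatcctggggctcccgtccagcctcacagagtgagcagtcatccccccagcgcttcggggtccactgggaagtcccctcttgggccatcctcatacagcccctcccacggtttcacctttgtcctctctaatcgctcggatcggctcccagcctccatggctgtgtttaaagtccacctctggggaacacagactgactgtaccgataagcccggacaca

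The windows were searched on both strands for AGATAA, read by GATA factors, TGTTTAC, read by FOXA factors, and TTCAGCACC, part of the REST motif, since Gata4 and Foxa2 were present in Sox17-only cells. Capitals mark the match: the Lgals2 window holds AGATAA. The Elavl4, Aqp8 and Pla2g12b windows hold none of these letters. Of all 32851 windows of this length in the RefSeq table, 9.99% held AGATAA, 3.17% TGTTTAC and 0.301% TTCAGCACC. Of the 10 genes of the Sox17-only side, 9 had a window, of which 3 (Dpp4, Nepn and Lgals2) held AGATAA and 2 (Nepn and Tspan8) TGTTTAC. Of the 10 genes of the Tubb3-only side, 7 had a window, and none of these held a motif. TTCAGCACC was in no window of either side. A match is a run of letters only, and binding was not measured here.

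Each set was next compared with the undifferentiated serum ES cells of the same lines, a contrast the rule did not use. The rule still chose the cells of each set. Genes that vary with Tubb3 or Sox17 between cells of a culture can thus be shifted by that choice. The mean FPKM over cells was taken per culture, and limma was fitted to log2(mean FPKM + 1) over 8 cultures with Benjamini-Hochberg adjustment over all genes tested. A gene was called at an adjusted p under 0.05 and a log2 difference of 1 or more. Genes were kept by their mean over all 8 cultures, the set among them. A gene under 1 FPKM in both serum ES cultures could thus be called higher but not lower. Both comparisons use the same serum ES, 2i and epiblast-like cultures, so they are given side by side and not as independent. Nothing in the labels says that the cultures of a state were separate beyond their line.

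Against serum ES cells, 24% of 15574 genes were called higher and 2.93% lower in Tubb3-only cells, with a median difference of 0.65. The neuronal genes rose: 15 of 17 pan-neuronal genes were called higher and none lower (median 5.53), Mapt and Uchl1 being the ones not called. Gap43 had culture means of 5.68 and 2.84 FPKM (female and male) in serum ES and 1213 and 3310 FPKM in Tubb3-only cells. Its log2 difference was 8.63 ± 0.78 (SE, limma, adjusted p = 0.00577). Cartpt was at 0.0255 FPKM in female and listed at 0 in male serum ES cells, and its means were 2622 and 5406 FPKM in Tubb3-only cells (limma, adjusted p = 0.000961). Both Tubb3-only means lay above both serum ES means for these genes. Of the 14 motor neuron genes 11 were tested, and 8 rose with none falling (median 4.35). Isl1 went from 0.0680 and 0.0440 FPKM to 176 and 293 FPKM (log2 difference 7.76 ± 0.53, limma, adjusted p = 0.00478).

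Genes of further lists rose in Tubb3-only cells. Of 7 tested of 16 granule genes, 6 were called higher, among them Chga and Scg3. Of 15 tested of 19 Hox genes, 11 rose and none fell (median 3.26), from Hoxb2 (13.4 and 17.5 FPKM in Tubb3-only cells) to Hoxb5 (57.9 and 205 FPKM). Of 9 tested of 13 retinoic acid and hedgehog genes, 4 rose, among them Crabp2, Rarb and Stra6. Of 11 tested of 12 basement membrane genes, 5 rose (median 1.72), among them Plat, with 62.8 and 49.5 FPKM, and Col4a2, with 16.8 and 15.0 FPKM. Among 9 tested visceral endoderm genes, Dab2 and S100g rose, a share near the 24% of all tested genes called higher. None of the 5 endoderm factors tested was called. Without the Tubb3-low cells Dab2 was not called (limma, adjusted p = 0.61). Its highest value in the 5 female Tubb3-high cells was 0.644 FPKM. In the 6 male cells, all Tubb3-high, its mean was 27.7 FPKM. Nanog, a pluripotency factor, fell from 93.5 and 100.5 FPKM to 9.31 and 0 FPKM (adjusted p = 0.0309, limma), and was the only one called of 10 pluripotency genes (median -4.50). Pou5f1 had means of 493 and 645 FPKM in serum ES and 96.6 and 0 FPKM in Tubb3-only cells, and was not called (limma, adjusted p = 0.0684). Of 16 proliferation genes 5 fell, Ccna2, Plk1, Pcna, Mcm2 and Mcm6 (median -2.42).

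Smaller counts were found in the other lists, beside 24% of all tested genes called higher and 2.93% lower. Nkx2-2 rose among 5 interneuron genes tested. Fabp7 and Msi1 rose and Olig1 fell among 7 progenitor genes. Epcam fell among 7 epithelial genes, Onecut1 rose among 6 gut genes, and no gene was called among 10 of mesoderm or 2 of crest and glia.

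The Tubb3-only calls rested on the serum ES cultures and also on the 2i and epiblast-like cultures of the fit. With either serum ES culture left out, nearly all calls were lost. With only the 4 cultures of Tubb3-only and serum ES cells, no gene was called by limma (4948 at an unadjusted p under 0.05). Of 4190 genes called, 89.1% were higher, and 55.05% of 3339 were when each culture was scaled to a common upper quartile, which moved the median of all genes from 0.65 to -0.06. With the 15 Tubb3-low cells left out, 34.3% of genes were called higher and 12% lower. That fit keeps cells picked by a high level of Tubb3, itself a neuronal gene, after the levels were seen. Its list counts therefore describe the picked cells and are no separate support. In that fit all 17 pan-neuronal genes rose, and 11 of 12 motor neuron genes. The lists of stem cell and cycling genes fell more widely, with 8 of 10 pluripotency genes (median -6.19) and all 16 proliferation genes (median -4.01) called lower by limma. Of 7 epithelial genes 4 fell. Of 6 progenitor genes 1 rose and 3 fell, and their median turned from 1.21 to -0.88. Fabp7 was not called (limma, adjusted p = 0.248). The interneuron median turned from 0.69 to -0.39 with none of 4 called, and 1 of 9 visceral endoderm genes was called. Leaving out these cells removed 15 of 20 female cells and no male cell.

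Against the same serum ES cells, 17.3% of 14401 genes were called higher and 7.48% lower in Sox17-only cells, with a median of 0.22. The basement membrane genes rose most completely, all 12 being called higher (median 6.23). Lamb1 had culture means of 11.4 and 13.6 FPKM (female and male) in serum ES and 526 and 842 FPKM in Sox17-only cells. Its log2 difference was 5.63 ± 0.34 (SE, limma, adjusted p = 0.000786). Col4a1 went from 0.647 and 0.634 FPKM to 412 and 469 FPKM (8.07 ± 0.73, limma, adjusted p = 0.00199). Both cultures of Sox17-only cells lay far above both serum ES cultures for these genes. Of the 11 endoderm factors other than Sox17, 10 were tested and 7 rose (median 3.39). Gata4 went from 0.0473 and 0.129 FPKM to 114.4 and 142.7 FPKM (6.89 ± 0.98, limma, adjusted p = 0.0062). Foxa2 was listed at 0 in female serum ES cells and had 78.8 and 112.7 FPKM in Sox17-only cells (limma, adjusted p = 0.00707). Sox7, Gata6, Hnf4a and Foxa3 were among the others that rose, and Hhex and Eomes were among those not called. Hnf4a was at 0 FPKM in both serum ES cultures and at 2.33 and 5.99 FPKM in Sox17-only cells, so it could only rise.

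Visceral endoderm genes went both ways in Sox17-only cells. Of 14 tested of 20, 6 rose (Dab2, Spink1, Cubn, Lrp2, S100g and Ttr) and 2 fell (Apoa2 and Cthrc1). S100g had 6653 and 2477 FPKM (limma, adjusted p = 0.00471) and Ttr 70.1 and 194 FPKM (limma, adjusted p = 0.0011), with serum ES means of at most 3.82 FPKM. Apoa2, an apolipoprotein, went from 64.9 and 127.9 FPKM in serum ES to 0 and 2.97 FPKM (limma, adjusted p = 0.011). Keratins Krt8, Krt18 and Krt19 and the tight junction gene Cldn6 rose among 7 epithelial genes. Rarb, Cyp26a1 and Stra6 rose and Crabp1 fell among 9 retinoid and hedgehog genes tested. Of 10 pluripotency genes 6 fell (median -5.34), Pou5f1 from 493 and 645 FPKM to 0.215 and 0 FPKM (limma, adjusted p = 0.000786). Pdgfra, a growth factor receptor found in mesoderm and primitive endoderm, rose and the vessel gene Pecam1 fell among 7 genes of mesoderm, vessel, blood and heart.

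Genes of the neuronal lists were called in both directions in Sox17-only cells, beside 17.3% of all tested genes called higher and 7.48% lower. Of 12 pan-neuronal genes tested Nefm rose, and Stmn2, Uchl1 and Ina fell. Among 5 motor neuron genes Foxp1 fell, and Isl1 was not called (means of 4.94 and 0.693 FPKM, limma, adjusted p = 0.15). The progenitor genes Pax6, Olig1 and Sox2 fell, 3 of 6 tested, and Sox21 rose among 5 interneuron genes. None of 3 Hox genes, 5 gut genes or 1 glial gene tested was called. Of 16 proliferation genes Mki67 rose (log2 difference 1.08) and the other 15 were not called (median 0.11). With the upper quartile over all genes above 0 as scale, Mki67 was at -0.55.

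**Figure D4:**
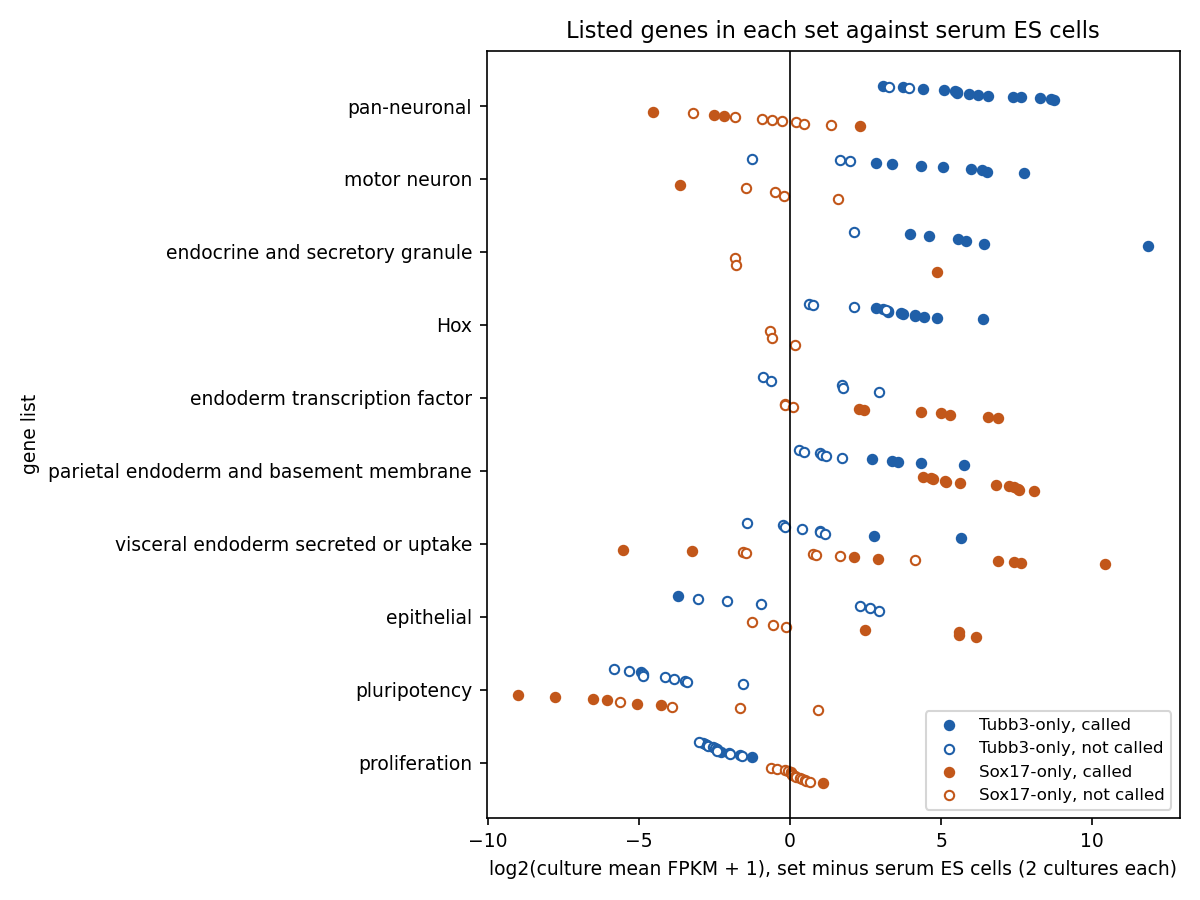
Log2 difference of culture means, set minus serum ES cells, on the log2(FPKM + 1) scale (horizontal axis), for each tested gene of 10 lists (vertical axis), in blue for Tubb3-only and orange for Sox17-only cells, with 2 cultures a set and filled points for genes called by limma. The pan-neuronal and Hox points of Tubb3-only cells lie to the right of 0, and so do all 12 basement membrane points of Sox17-only cells, while both sets lie mostly to the left for pluripotency genes.

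The Sox17-only calls also depended on the serum ES cultures, with 713 genes called without the female one and 820 without the male one, of 3571 with all. Higher calls were 69.8% of all calls, and 42.6% with each culture scaled to a common upper quartile, which moved the median of all genes from 0.22 to -0.21.

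Abundant genes of each set had low means in the other, some above and some below those of serum ES cells. Cartpt rose in Sox17-only cells too (limma, adjusted p = 0.000963), with means of 30.2 and 27.5 FPKM, which are 1.15% and 0.509% of the Tubb3-only means of the same cultures. It was at 1 FPKM or more in 11 of 13 Sox17-only cells. No serum ES cell reached 1 FPKM of Cartpt. Conversely, S100g had means of 96.7 and 227.9 FPKM in Tubb3-only cells, 1.45% and 9.20% of those in Sox17-only cells. Spink1 was at 0.303% and 3.83%, Srgn at 0.107% and 1.88%, and Lamb1 at 8.50% and 1.93%. Several of these means were near or below those of serum ES cells in 1 culture and above them in the other. In female Tubb3-only cells Srgn was at 0.875 FPKM as against 10.3 FPKM, and Spink1 at 18.1 as against 20.3 FPKM. In male cells Srgn was at 54.7 as against 5.06 FPKM, and Spink1 at 41.1 as against 6.56 FPKM. Lamb1 was at 16.2 as against 13.6 FPKM in the male culture and at 44.7 as against 11.4 FPKM in the female culture. Gap43 in Sox17-only cells was at 2.08% and 0.163% of its level in Tubb3-only cells, with means of 25.2 and 5.39 FPKM beside 5.68 and 2.84 FPKM in serum ES cells. Stmn2 had means of 34.6 and 28.1 FPKM in Sox17-only cells, below its serum ES means of 167.5 and 128.5 FPKM. These shares differed between genes and between cultures. S100g and Dab2, called higher in Tubb3-only cells above, and Cartpt in Sox17-only cells were thus genes with much higher means in the other set. RNA carried over between cells of a culture was not tested.

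Cells with both genes spanned the range between the sets. Of these 34 cells, 11 (2 female and 9 male) had Tubb3 at 1000 FPKM or more, and in these Sox17 had a lowest, median and highest value of 14.1, 40.1 and 353 FPKM. In the other 23 cells (9 female and 14 male) Sox17 had 10.4, 318 and 2419 FPKM and Tubb3 had a median of 77.3 FPKM. The highest Tubb3 value of these, 969 FPKM, was just under the cut, in a male cell with 11.8 FPKM of Sox17. Its pan-neuronal level of 8.83 and basement membrane level of 4.28, on the log2(FPKM + 1) scale, lay inside the Tubb3-high ranges. The mean level of the 12 basement membrane genes, on the log2(FPKM + 1) scale, had medians of 3.76 in the 11 cells and 7.62 in the 23 cells. It was 2.39 in Tubb3-high and 7.71 in Sox17-only cells. The pan-neuronal level had medians of 8.92 in the 11 cells and 3.35 in the 23 cells, beside 9.05 in Tubb3-high and 1.24 in Sox17-only cells. By medians, cells with both genes and high Tubb3 were thus near the Tubb3-high cells for the pan-neuronal genes. The others were near the Sox17-only cells for the basement membrane genes. The ranges were wider. In the 11 cells the pan-neuronal level ran from 7.08 to 9.43, beside 8.71 to 9.28 in Tubb3-high cells. Their basement membrane level ran from 1.91 to 8.20, beside 1.49 to 4.46. In the 23 cells it ran from 4.23 to 9.88, beside 5.96 to 9.47 in Sox17-only cells.

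Of the 34 cells, 9 had a pan-neuronal level at or above the lowest Tubb3-high cell and 18 a basement membrane level at or above the lowest Sox17-only cell. A single male cell met both, 1 of 34. That cell had 12914 genes at 1 FPKM or more, the most of any motor neuron culture cell. By a looser measure, 24 of 34 were above every Sox17-only cell for the pan-neuronal genes and above every Tubb3-high cell for the basement membrane genes. Across the 34 cells, which share 2 cultures and differ in genes detected, the list levels had Pearson r = -0.72 and Spearman rho = -0.60, as a description. Tubb3 and Sox17 themselves had r = -0.43 and rho = -0.40. No doublet call was made. Genes detected at 1 FPKM or above numbered, in the median cell, 9313 (female) and 9328 (male) in cells with both, 9607 and 9753 in Tubb3-only and 8847 and 8602 in Sox17-only cells. Whether a library held more than 1 cell was not tested.

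**Figure D5:**
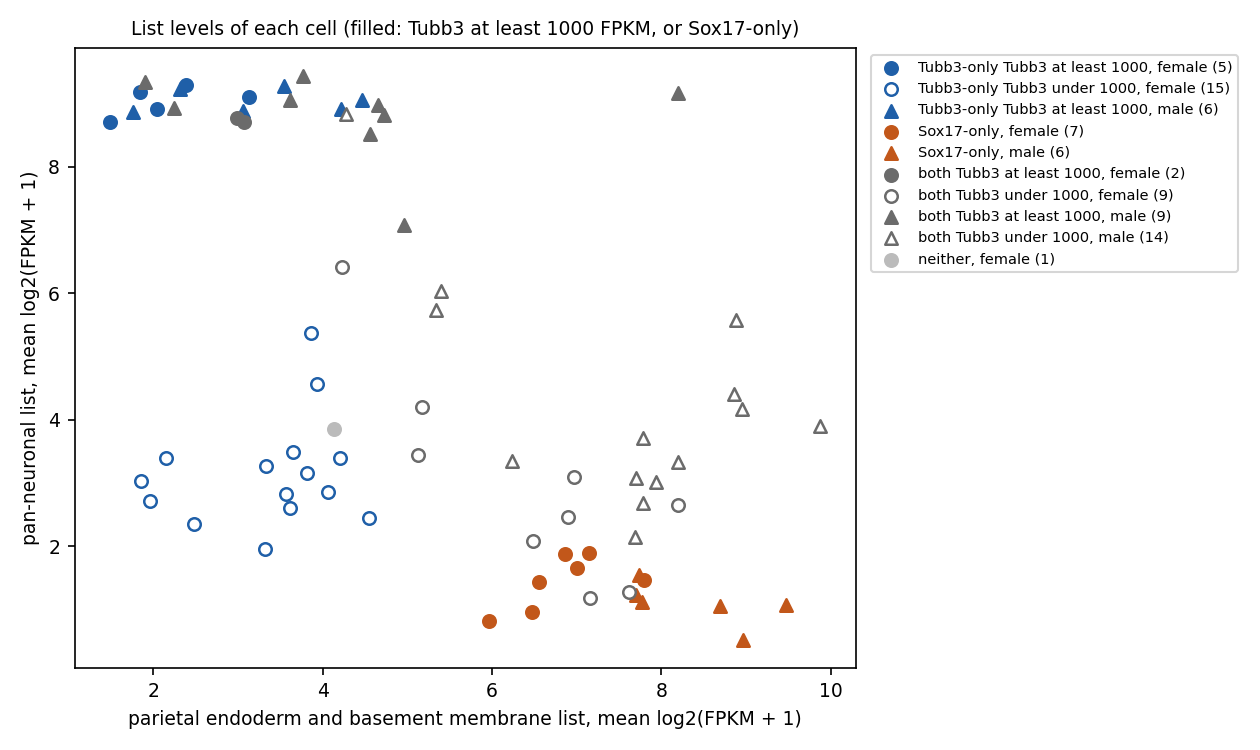
Mean level of the 17 pan-neuronal genes (vertical axis) against that of the 12 parietal endoderm and basement membrane genes (horizontal axis) in each of the 74 cells, as mean log2(FPKM + 1), with colour for the set, shape for the line and open points for Tubb3 under 1000 FPKM in the Tubb3-only and both sets. Of the 34 cells with both genes in grey, 1 male cell stands high on both axes, and the open blue Tubb3-low cells lie low on both.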

How the data were processed

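Single cells were lysed and amplified by the SMART-seq2 protocol and cut with Tn5, as the protocols in the labels state. The deposited values used here are FPKM per gene and cell, normalized by the authors; STAR 2.4.1, Cufflinks, Cuffnorm 2.2.1 and mm10 are named per the submitters' processing notes, with no role or annotation given. Molecules were not counted, the depth behind each FPKM value is unknown, and no interval could be given for it. Cells were grouped by the labels, and each column matched 1 sample. Symbols came from GENCODE (42548 of 43628 gene IDs matched). Some list genes and 1 promoter motif are not reported here, though list counts and medians include those genes. The members, the 16 gene lists and the tests were chosen with earlier results of these data known.

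Computation used python 3.11.15, numpy 2.4.6, pandas 2.3.3, scipy 1.17.1, matplotlib 3.10.9, R 4.3.3 and limma 3.58.1 (trend = TRUE, 1 coefficient a state, 8 cultures). The pseudocount was 1, and genes with a mean of 1 FPKM or more were kept. The 2 main fits were tested on simulated data. The count between the sets was tested on the cells with both genes, split at random, with chosen genes raised in 1 part. The other fits, the list counts and the shares had no such test. The p-values measure the spread between 2 lines a state, which may be of line, sex or culture. Named genes were listed genes with a mean of 10 FPKM or more in a set, defining markers at or near 0, and the 10 largest differences in each direction among genes detected (1 FPKM or more) in 50% or more of the higher set. The 2 lines recur in every state, so line pairs the cultures; the female minus male deviations of 2 states correlated over genes with r from 0.04 to 0.18 for the Tubb3-only fit and from 0.07 to 0.10 for the Sox17-only fit.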

Additional observations from a re-analysis of the deposited data

Results flagged for a closer look

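Fgb, a fibrinogen chain of visceral endoderm and liver, moved in opposite directions in the 2 cultures. Its log2 difference, Tubb3-only minus Sox17-only, was 2.74 in the female and -1.89 in the male culture, which differ by 4.62. This difference was not tested. Fgb was at 1 FPKM or more in 1 of 26 Tubb3-only cells (132.4 FPKM) and 1 of 13 Sox17-only cells (16.4 FPKM), so each value rests on 1 cell. Of all genes past the filter, 3.69% differed by a log2 of 1 or more in opposite directions in the 2 cultures.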

How the results depend on the processing

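Both the counts and the balance of higher and lower calls depended on the processing. For Tubb3-only against serum ES cells (4190 genes called), limma called 2546 with no low-value filter, 2007 from the mean over cells of log2 values, 0 with only the 4 cultures compared (4948 at an unadjusted p under 0.05) and 7198 with Tubb3 at 1000 FPKM or more, an alternative chosen after seeing the data. Leaving out 1 culture gave 0 (without female serum ES cells) to 7717 calls (without the female Tubb3-only set), with 2 without male serum ES cells and 2087 and 2090 without the female and male 2i cells. For Sox17-only (3571 called), the count was 1995 with no filter, 2125 with the 4 cultures compared and 6334 with the upper quartile over all genes above 0 as scale, also chosen after seeing the data. Leaving out 1 culture gave 713 (without female serum ES cells) to 4622 (without the female Sox17-only set), with 820 without male serum ES cells and 2013 and 1997 without the 2i cultures. Upper-quartile scaling over genes past the filter gave 1838 higher and 1501 lower for Tubb3-only (3734 and 456 before) and 1315 and 1769 for Sox17-only (2494 and 1077). Over all genes above 0 it gave 1118 and 2180, and 482 and 5852, with the median of all genes at -0.63 and -1.16. The cause of these shifts was not tested.

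With line as a replicate block, 4251 and 3541 genes were called, 3887 and 3279 of them shared with the fit without it. The block changed no named call for Tubb3-only and ended 1 of 41 for Sox17-only. Over all alternatives, named genes kept direction and call in 411 of 543 values for Tubb3-only and 602 of 727 for Sox17-only. In the rest they lost or gained the call, or turned direction. Gap43 (-0.18) and Mki67 (-0.55) in Sox17-only cells turned direction under upper-quartile scaling over all genes above 0.

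Between the sets, 3919 genes passed the fold. Without the runs M73 to M96, 3 of 7 epithelial genes were counted higher in Sox17-only cells, as against 6 with all. The count was 8010 without the male and 9242 without the female culture, where fewer conditions had to be met. It was 8186 and 8618 without the runs M1 to M24 and M25 to M48. There 1 culture held fewer than 3 cells of a set, so cells of both cultures were pooled. The pooled counts thus mix line with set and also had fewer conditions to meet. Without 1 culture, the medians ranged from 5.47 to 7.61 for the pan-neuronal, -3.33 to -1.72 for the endoderm factor and -5.48 to -3.31 for the basement membrane list. The endoderm factor median was -3.77 with a pseudocount of 0.1. With a threshold of 100 FPKM, chosen after seeing the data, 28.2% of female cells were Tubb3-only and 0% had both. In the male culture, 45.7% were Tubb3-only, 37.1% Sox17-only and 11.4% both. FPKM without counts limits what low values show.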
